A study of Mus musculus with 4 samples.

Results

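The SR proteins bind exonic enhancers and recruit the splicing machinery, and the TRA2 proteins are their close relatives with the same arginine-serine rich domains. Many of these genes limit their own output through a poison exon, an exon that carries an in-frame stop codon, so that the mRNA which includes it is degraded by nonsense-mediated decay. Members of the family are known to promote the poison exons of their own or of related transcripts, which ties the inclusion of the exon to the amount of productive mRNA.

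The genes examined were *Srsf2*, *Srsf3*, *Srsf4*, *Srsf5*, *Srsf6*, *Srsf7*, *Srsf10*, *Srsf11*, *Tra2a* and *Tra2b*, which are 10 of 18940 genes that could be named in the exon trio tables. In a trio a middle exon is listed with the exon before it and the exon after it, and the gene of a trio was found from the length of its middle exon and of both introns. The 10 genes held 111 of 228333 trios and 76 of 190106 distinct middle exons or pieces of exons. All 76 had at least 20 junction reads in both libraries of each stage. The trio database labels 58 of them constitutive, 8 cassette, 7 alternative 5′ splice sites and 3 alternative 3′ splice sites. Poison exons were set apart by annotation alone, as middle exons found in a transcript annotated for nonsense-mediated decay and in no coding sequence of a protein-coding transcript. There were 7 of these, in *Srsf2* (a pair), *Srsf3*, *Srsf7*, *Srsf11*, *Tra2a* and *Tra2b*. The annotated decay-linked exons of *Srsf4* and *Srsf6* were not middle exons of a named trio.

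PolyA+ RNA was sequenced from mice on a mixed background, labelled as C56Bl/6:129S2, that carry or lack a deletion of exon 4 of *Ptbp2*, the neuronal polypyrimidine tract binding protein. At embryonic day 18 (E18), whole brains of the NesKO, in which Cre under the Nestin promoter acts in neuronal progenitors and their progeny, were compared with wild-type littermates, with 2 brains for each genotype. At postnatal day 1 (P1), the cortex of 1 EmxKO animal, in which Emx1-Cre acts in the projecting neurons of the higher forebrain, was compared with that of 1 littermate labelled wild type. Each group has 1 library, so no difference between genotypes has a replicate check, and the tests below compare reads of libraries, not genotypes. Stage, tissue, Cre line and library protocol (not strand specific at E18, strand specific at P1) change together and cannot be told apart.

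The libraries held 48367448 and 50188724 junction reads at E18 (NesKO and wild type) and 83110007 and 83394001 at P1 (EmxKO and labelled wild type), each distinct junction counted once. Skipping of *Ptbp2* exon 4 was 100.0% in the NesKO, 0.225% in its wild type and 82.6% in the EmxKO. It was 31.5% (95% Wilson interval, 29.5 to 33.7%) in the P1 library labelled wild type, which goes against the label, so P1 differences are against the library labelled wild type throughout. Neuronal markers were high in every library (1780 to 3030 RPM summed, where RPM is reads per 1000000 junction reads of the library). Of 5 brain stem and spinal markers only 2 had junctions in the trios. They had no read in either cortex library, but were also low in whole brain, at 1.14 RPM in the NesKO and 2.93 in its wild type. Summed blood markers were at 1420 RPM in the NesKO against 1090 in its wild type, and 161 against 168 at P1. Microglial markers summed to 76.4 RPM in the NesKO against 55.6, and to 45.9 in the EmxKO against 29.9 in the library labelled wild type. Markers of the oligodendrocyte lineage were at 60.7 against 89.9 RPM at E18 and at 89.2 against 75.9 at P1. Whether differences in cell makeup contribute to the values below was not tested, and in tissue RNA fewer cells of a type and less RNA per cell cannot be told apart.

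The in-frame stop of the poison exons is shown here because it is the feature by which these exons end the reading frame. Each line gives the exon from its first base to the stop codon in capitals, 5′ to 3′ on the transcribed strand, from GENCODE M21 transcripts on GRCm38. The exons of *Srsf2* lie in the 3′ UTR and are not printed.
Srsf3: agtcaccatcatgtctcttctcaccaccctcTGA
Srsf7: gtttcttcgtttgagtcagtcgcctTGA
Srsf11: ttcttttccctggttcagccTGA
Tra2a: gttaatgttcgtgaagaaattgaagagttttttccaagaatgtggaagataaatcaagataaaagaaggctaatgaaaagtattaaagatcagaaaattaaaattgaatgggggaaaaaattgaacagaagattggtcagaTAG
Tra2b: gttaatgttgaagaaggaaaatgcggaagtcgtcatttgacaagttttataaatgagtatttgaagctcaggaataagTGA

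On GRCm38 the printed stretches are chr17:29039454-29039487 on the plus strand (*Srsf3*), and on the minus strand chr17:80205054-80205081 (*Srsf7*), chr3:158024209-158024231 (*Srsf11*), chr6:49252965-49253108 (*Tra2a*) and chr16:22259181-22259261 (*Tra2b*). Read from the annotated start codon, inclusion leaves 124 codons of 164 in *Srsf3*, 137 of 238 in *Srsf7*, 147 of 511 in *Srsf11*, 59 of 282 in *Tra2a* and 38 of 288 in *Tra2b*. The exons of *Tra2a* and *Tra2b* open with the same 9 bases, and both are poor in G and C (30.1% and 32.6%, against 43.1 to 51.3% in the other 5 poison exons). The hexamer GAAGAA, of the purine-rich kind that TRA2 proteins are known to bind, was searched on the transcribed strand with overlaps counted. It occurs 4 times in the whole *Tra2a* exon, 3 times in *Tra2b*, once in *Srsf7* and not in the other 4. In windows of the same length at the start of annotated internal exons, 23.0% hold it at the length of *Tra2a*, 21.5% at that of *Tra2b* and 30.2% at that of *Srsf7*. The pyrimidine hexamer CTCTCT, of the kind bound by PTB proteins, is in none of the 7, and 3.49 to 18.5% of internal exons hold it in windows of these lengths. Flanking introns were not searched here.

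The first comparison asks whether the poison exons were included at another level in the knockout. Since mRNA that includes a poison exon is degraded, its share in these libraries reflects both splicing and decay, which cannot be told apart here. Inclusion is given as the percent spliced in (PSI), which is the deposited SpliceTrap ratio in percent after its correction, and a difference of 10 points was called a change. A second measure was taken from the junctions alone, where the averaged reads of the upstream and downstream inclusion junctions were divided by that average plus the skipping reads, with a 95% Wilson interval. At E18, 1 of the 7 poison exons changed by the deposited ratio (*Tra2a*, lower in the NesKO), and at P1 none did. The background over all middle exons tested was 2.12% at E18 and 1.39% at P1, and over those labelled cassette 11.0% and 9.51%. The share of poison exons called is therefore near that of cassette exons of the series. The PSI was lower in the NesKO for 6 of the 7 and lower in the EmxKO for 4 of the 7. By junction reads it was lower for 5 of the 7 in the NesKO and for 1 of the 7 in the EmxKO.

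**Figure D1:**
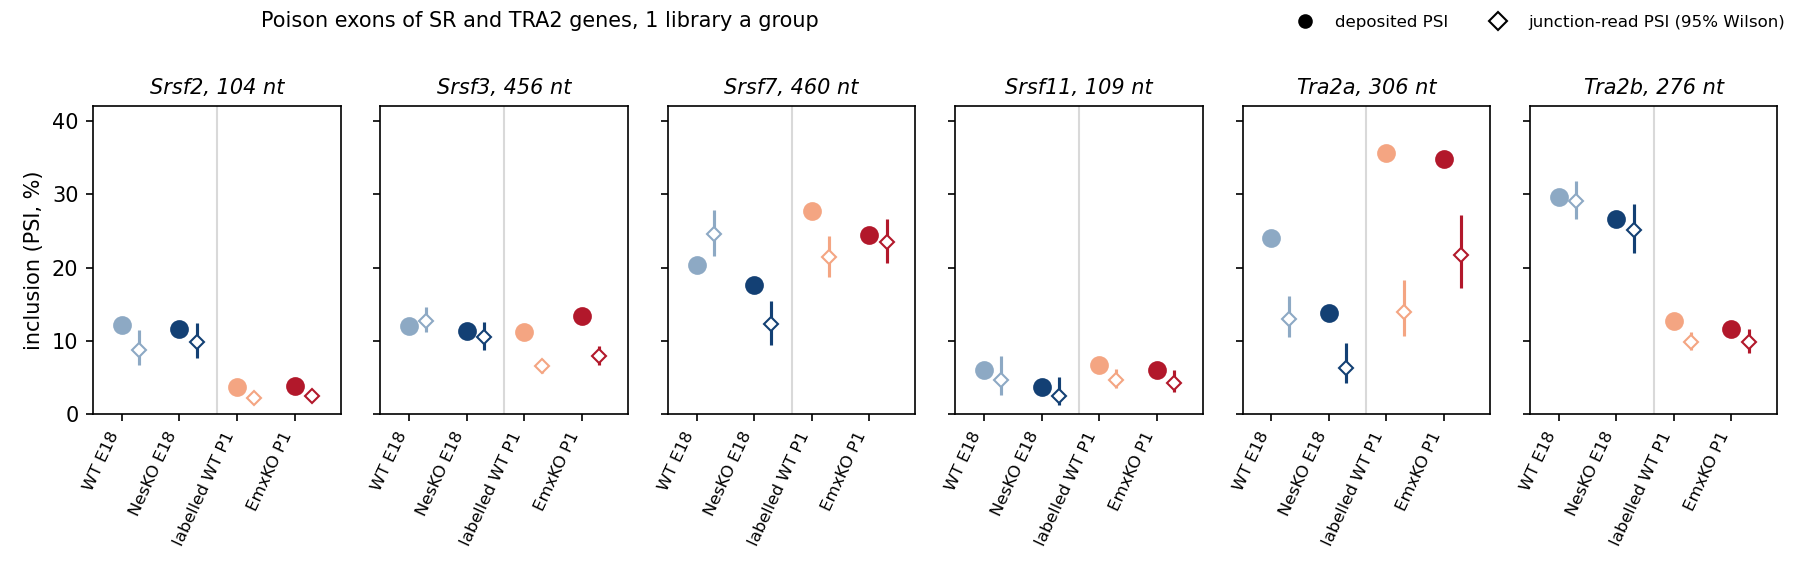
Inclusion of the 6 poison exons labelled cassette in each library, in percent on a linear axis from 0. Filled circles are the deposited PSI, open diamonds the junction-read PSI with 95% Wilson intervals, and each group is 1 library. The junction-read intervals of the E18 libraries do not overlap for *Srsf7* and *Tra2a*, and *Tra2b* and the *Srsf2* 104 nt exon lie lower in both P1 libraries than in both E18 libraries.

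*Tra2a*, which encodes an SR-like activator of exons with GAA-rich enhancers, carries a poison exon of 306 nt at chr6:49202802-49203107 of mm9 on the minus strand. Its PSI was 13.8% in the NesKO against 24.1% in the E18 wild type, a difference of -10.3 points. At P1 it was 34.8% in the EmxKO and 35.7% in the library labelled wild type. The order of the deposited levels was thus NesKO, E18 wild type and then both P1 libraries, whose values lie 0.9 points apart. Junction reads gave 6.39% (4.35 to 9.69%) in the NesKO, from 13 upstream, 30 downstream and 315 skipping reads. The E18 wild type had 95, 48 and 479 such reads and 13.0% (10.5 to 16.1%). The reads point the same way as the deposited ratio at E18, but the difference had an adjusted p of 0.49 (unadjusted p = 0.00226) by Fisher's exact test over all middle exons. At P1 the reads gave 21.7% (17.3 to 27.2%) in the EmxKO and 14.0% (10.7 to 18.3%) in the library labelled wild type, so the reads differed by 7.8 points where the deposited ratio differed by -0.9. In this trio 19 and 33 reads lay on the downstream junction at P1 (EmxKO and labelled wild type), against 96 and 58 on the upstream one. At its highest listed value the same downstream junction had 39 and 61 reads at P1, and 78 and 109 at E18 (NesKO and wild type). The 2 junctions thus went opposite ways at P1, and with the smaller one the P1 difference was -2.1 points.

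*Tra2b*, the paralog of *Tra2a*, has a poison exon of 276 nt at chr16:22259059-22259334 of mm9 on the minus strand. Its PSI was 26.7% in the NesKO against 29.7% in the E18 wild type, and 11.6% in the EmxKO and 12.8% in the library labelled wild type. Neither pair differed by 10 points. The junction reads gave 25.2% (22.0 to 28.7%) against 29.1% (26.6 to 31.8%) at E18, and 9.93% (8.37 to 11.7%) against 9.92% (8.72 to 11.2%) at P1. The levels within a stage overlapped by these intervals, while the levels of the 2 stages did not.

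*Srsf7*, an SR protein with a zinc knuckle, has a poison exon of 460 nt at chr17:80603962-80604421 of mm9 on the minus strand. The deposited PSI was 17.7% in the NesKO, 20.4% in the E18 wild type, 24.4% in the EmxKO and 27.7% in the P1 library labelled wild type. The junction reads separated the E18 libraries more widely, at 12.3% (9.52 to 15.4%) in the NesKO against 24.6% (21.6 to 27.9%) in its wild type. These rest on 66 upstream, 51 downstream and 419 skipping reads in the NesKO, and on 156, 204 and 551 in its wild type. This was the only poison exon with an adjusted p below 0.05 at E18 (4.9e-05, Fisher's exact test), although its deposited ratio moved by -2.7 points. At P1 the read values were 23.5% (20.6 to 26.6%) in the EmxKO and 21.4% (18.7 to 24.3%) in the library labelled wild type, which overlap. Over all middle exons tested, 0.245% had an adjusted p below 0.05 at E18 and 0.47% at P1.

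*Srsf3*, the smallest SR protein, has a poison exon of 456 nt at chr17:29176399-29176854 of mm9 on the plus strand. Its PSI was 11.4% in the NesKO, 12.1% in the E18 wild type, 13.4% in the EmxKO and 11.3% in the P1 library labelled wild type. The 4 levels lie within 2.1 points, and no pair of a stage passed either criterion. Junction reads gave 10.6% (8.84 to 12.6%) against 12.8% (11.2 to 14.6%) at E18 and 7.96% (6.77 to 9.39%) against 6.6% (5.71 to 7.6%) at P1. The upstream junction held far more reads than the downstream one at E18, 194 and 28 reads in the NesKO, 314 and 49 in its wild type, so the mean of both hides an imbalance that is alike in both libraries.

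*Srsf11*, which encodes an SR-related protein, has a poison exon of 109 nt at chr3:157687087-157687195 of mm9 on the minus strand. It was the least included at E18, at 3.7% in the NesKO against 6.0% in the wild type, and stood at 6.0% in the EmxKO and 6.7% in the P1 library labelled wild type. The E18 values rest on few inclusion reads, 11 and 3 on the upstream and downstream junctions in the NesKO, 20 and 4 in its wild type. At that depth 3 reads of the total are 1.08% and 1.16%, and the read intervals overlap at both stages.

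*Srsf2*, a general activator of splicing, has its pair of poison exons in the 3′ UTR, where splicing places junctions behind the normal stop codon. The exon of 104 nt, at chr11:116712962-116713065 of mm9 on the minus strand, leaves the protein unchanged and puts the last junction 111 nt behind the stop. Its PSI was 11.7% in the NesKO against 12.2% in the E18 wild type, and 3.9% and 3.8% in the EmxKO and the P1 library labelled wild type. The 2 libraries of each stage thus lay within 0.5 points, and both stages differed in level. The exon of 106 nt, at chr11:116712170-116712275, is joined in its trio to the 104 nt exon upstream, so its upstream and skipping junctions lie only in transcripts that already include that exon, and its values are not the share of all *Srsf2* mRNA. Its junction-read PSI in that trio was high in every library (99.8%, 99.7%, 97.8% and 97.4% in the NesKO, its wild type, the EmxKO and the library labelled wild type). The deposited ratio of the same exon was 99.9% and 99.8% at E18 but 58.9% and 58.2% at P1, so the 2 measures part at P1 while the genotypes stay within 0.7 points.

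A shift in PSI can come from fewer inclusion reads or from more skipping reads, so both were scaled to the junction reads of each library. In the NesKO the inclusion reads were 0.337 times the wild-type level for *Srsf7*, 0.312 for *Tra2a*, 0.498 for *Tra2b*, 0.635 for *Srsf3* and 0.605 for *Srsf11*. The skipping reads of the same exons were 0.789, 0.682, 0.606, 0.787 and 1.15 times the wild-type level. By the mean of the 2 inclusion junctions the poison forms were therefore lower than the productive forms in proportion for these 5 of the 7 exons. The test of the proportion passed only for *Srsf7*. For *Tra2a* the upstream junction had 13 reads in the NesKO and 95 in its wild type. Its downstream junction at its highest listed value had a ratio of 0.743, beside 0.683 for the skipping junction, so by that junction the poison form was not lower in proportion. In *Srsf2* the exon of 104 nt had an inclusion ratio of 1.24 and a skipping ratio of 1.1. Its skipping junction ends at the start of the 106 nt exon, so its reads can also come from that other poison form. At their highest listed values that junction had 564 and 528 reads at E18 (NesKO and wild type). The downstream junction of the 106 nt exon had 863 and 698. For the exon of 106 nt the inclusion and skipping ratios were 1.29 and 1.04, but the latter rests on 1 skipping read in each E18 library. Its skipping form still includes the 104 nt exon, so the ratios of neither *Srsf2* exon give a direction against a productive form. In the EmxKO the inclusion reads of *Tra2b* and *Srsf3* were 0.561 and 0.754 times and their skipping reads 0.56 and 0.616 times those of the library labelled wild type. Both forms of these 2 genes were thus lower in the EmxKO. For *Srsf7* and *Tra2a* the inclusion ratios at P1 were 1.07 and 1.27, and the skipping ratios 0.946 and 0.742. The *Tra2a* inclusion ratio averages an upstream junction that was higher and a downstream one that was lower in the EmxKO.

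*Srsf4* offers a related measure, since the upstream splice site of its exon 2 (143 nt) is joined either to exon 1 or to an exon that the annotation holds only in transcripts with decay or retained-intron status. One of those transcripts begins at that exon, so its junction reads are not all reads of a poison form. The alternative junction took 22.8% (19.5 to 26.5%) of the reads at this splice site in the NesKO and 28.2% (24.3 to 32.5%) in the E18 wild type. It took 32.1% (29.0 to 35.4%) in the EmxKO and 32.7% (29.6 to 35.9%) in the P1 library labelled wild type. The intervals overlap within each stage. The 4 middle exons of *Srsf4*, which like *Srsf6* encodes a larger SR protein with a pair of RNA recognition motifs, were included at 99.9% in all libraries, as were 3 of the 4 of *Srsf6*, whose remaining exon stood between 99.2% and 99.9%.

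Among the other 69 middle exons and pieces, 4 changed at E18 and none at P1. With the poison exons, 5 of 76 changed at E18, 2 higher and 3 lower in the NesKO, and 0 of 76 at P1. The E18 share was 6.58%, beside 2.12% of all middle exons tested at E18 and 1.39% at P1. An adjusted p below 0.05 by Fisher's exact test was reached by 3 of the 76 at E18 and by 1 at P1, without regard to size. Over all middle exons tested the shares were 0.245% and 0.47%. Differences were within 2 points for 66 of the 76 at E18 and for 67 at P1. PSI was at least 99% in both libraries for 55 exons at E18 and 54 at P1, so most exons of the family were included almost fully in every library. Both criteria together, 10 points and an adjusted p below 0.05, were met by 2 of 76 at E18 and by 0 at P1, beside 0.15% and 0.193% of all middle exons.

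**Figure D2:**
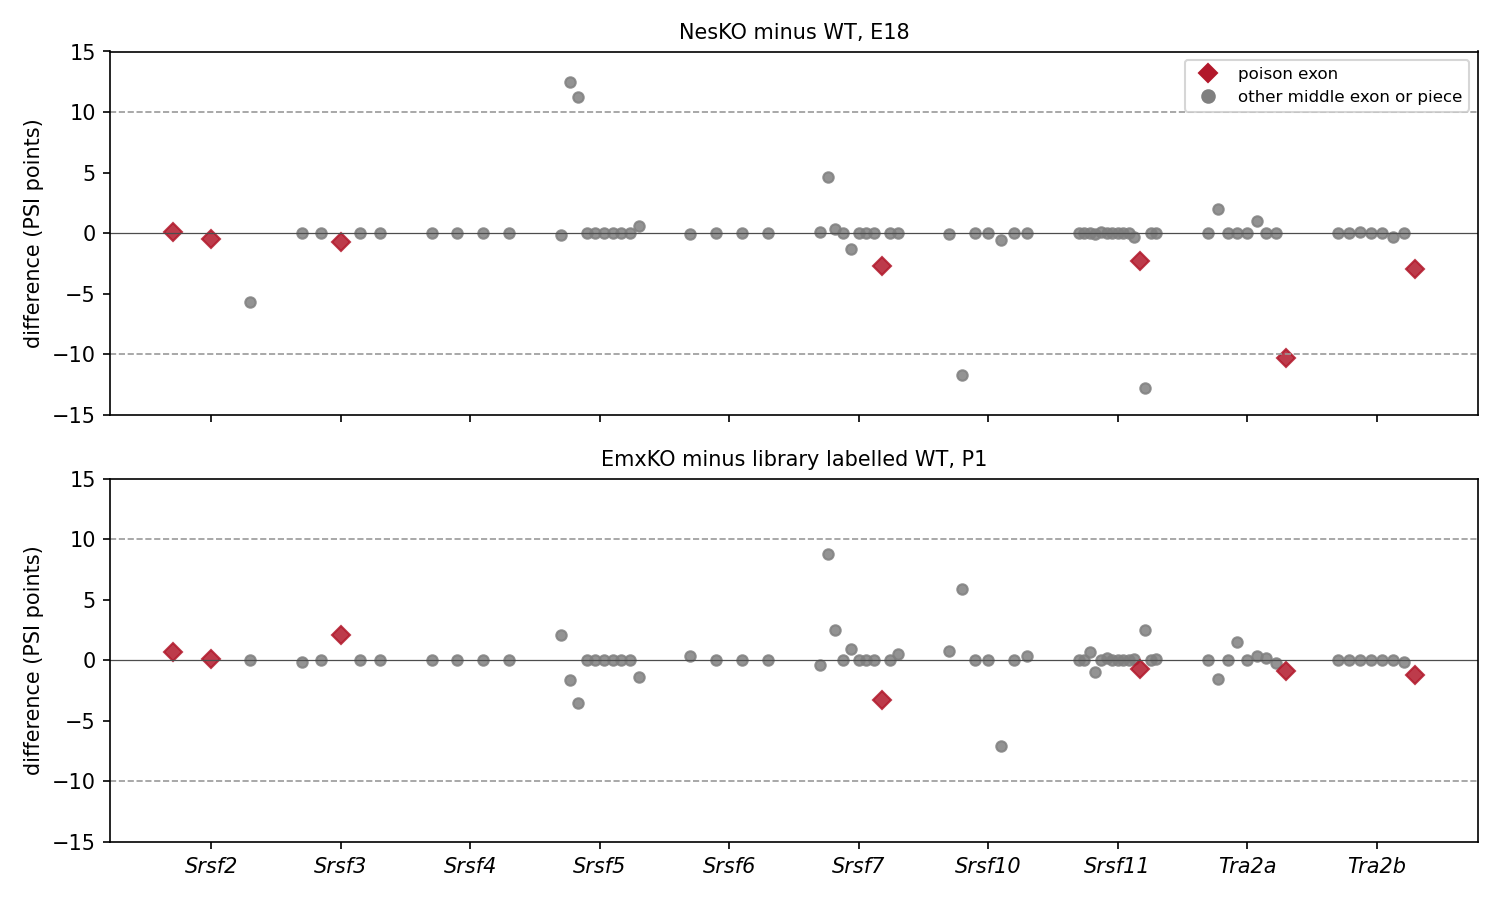
Difference in deposited PSI, knockout minus wild type, in points, for the 76 middle exons or pieces of the 10 genes at E18 (top) and P1 (bottom). Red diamonds are the 7 poison exons, grey circles the others, dashed lines mark 10 points, and exons of a gene are ordered by position. At E18 2 points of *Srsf5* lie above the upper line, and *Srsf10*, *Srsf11* and *Tra2a* have 1 point each below the lower line, whereas at P1 every point lies between the lines.

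Both exons that met the 2 criteria (10 points by the deposited ratio, and an adjusted p below 0.05 on the reads) are pieces of the first exon of *Srsf5*, an SR protein gene with 3 alternative 5′ splice sites at the end of that exon. The piece of 130 nt (chr12:82046656-82046785 of mm9, plus strand) was included at 62.1% in the NesKO against 49.6% in the E18 wild type, and 51.8% in the EmxKO and 53.4% in the P1 library labelled wild type. The piece of 126 nt, which is the same piece without its first 4 bases, had 52.0% and 40.8% at E18, and at P1 it stood at 34.5% in the EmxKO, a difference of -3.5 points. By junction reads the E18 differences were smaller, 3.7 points for the longer and 8.7 for the shorter piece, and neither reached 10 points. They share the distal splice site and are not independent. The adjusted p at E18 was 9.7e-07 for the longer and 9.9e-20 for the shorter piece, and at P1 it was 1.0 and 0.011 (Fisher's exact test).

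The reads that join the 3 ends to exon 2 give the same choice directly. In the NesKO, 3713 reads left from the distal end, 1042 from the middle one and 381 from the proximal one, so that the distal end took 72.3% (71.1 to 73.5%). In the E18 wild type the counts were 3344, 1527 and 547, and the distal share was 61.7% (60.4 to 63.0%). At P1 the distal share was 33.9% (32.5 to 35.4%) in the EmxKO and 37.2% (35.8 to 38.7%) in the library labelled wild type. The distal end was thus used more in the NesKO and slightly less in the EmxKO than in its comparison library, and it dominated only at E18.

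**Figure D3:**
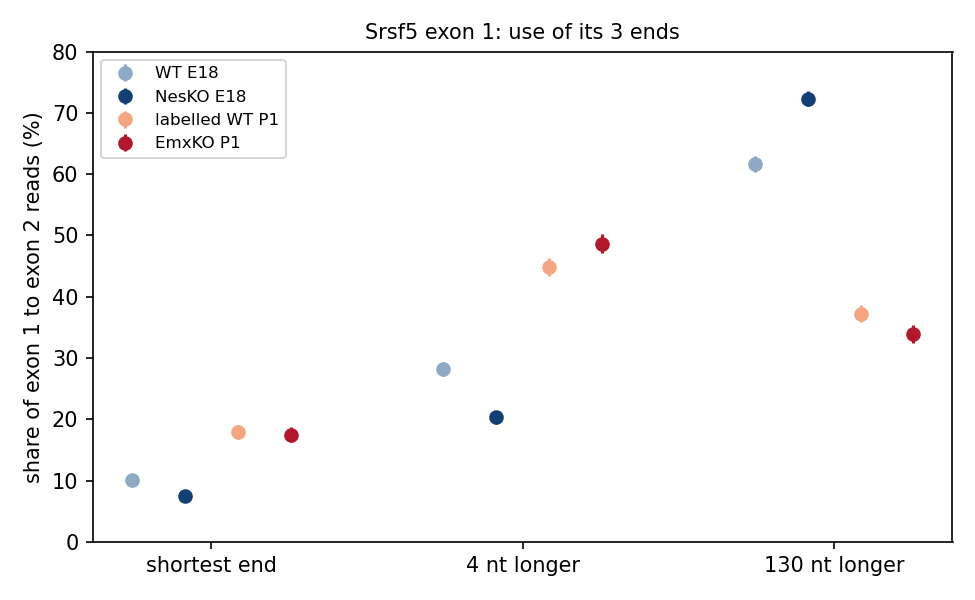
Share of the *Srsf5* reads joining exon 1 to exon 2 that leave from each of the 3 ends of exon 1, in percent on a linear axis, with 95% Wilson intervals from 1 library a group. The end 130 nt longer takes 72.3% and 61.7% in the E18 libraries and 33.9% and 37.2% at P1, and the end 4 nt longer takes 20.3% and 28.2% at E18 and 48.6% and 44.8% at P1.

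By junction reads none of the 5 changed exons reached 10 points, and the remaining 2, in *Srsf10* and *Srsf11*, had no adjusted p below 0.05 either. The exon of 167 nt in *Srsf10*, which encodes a splicing repressor activated by dephosphorylation, is the long form of exon 2 and is annotated in processed transcripts alone. Its PSI was 78.6% in the NesKO against 90.3% in the E18 wild type, 98.6% in the EmxKO and 92.7% in the P1 library labelled wild type. By reads it was skipped once in each E18 library, and the adjusted p was 1.0 at E18 (Fisher's exact test). Measured against the short form of the same exon, the long 5′ splice site took 15.3% (12.9 to 18.0%) of the reads in the NesKO and 11.2% (9.28 to 13.4%) in its wild type, with 21.1% (17.2 to 25.7%) and 22.3% (19.8 to 25.1%) at P1. The *Srsf11* exon of 64 nt, annotated in a retained-intron transcript only, was included at 30.9% in the NesKO against 43.7% in its wild type, 50.5% in the EmxKO and 48.0% in the P1 library labelled wild type. In its trio it is joined to the 109 nt poison exon downstream, and its skipping junction is the upstream junction of that poison exon. Its values are therefore not the share of all *Srsf11* mRNA. The junction that passes over both exons had 285 reads in the NesKO and 258 in the E18 wild type. The reads of the 64 nt exon went the other way at E18, with 69.2% (48.1 to 85.5%) in the NesKO against 60.0% (43.6 to 74.4%), from 6 and 14 skipping reads. The last cassette exon, of 36 nt in *Srsf7*, was listed at 90.1%, 90.0%, 89.5% and 89.9% and did not move in either comparison by more than 0.4 points. In its trio the upstream junction had no read in any library, so all inclusion reads lay on the downstream one. The skipping junction had 52, 39, 116 and 156 reads in that trio, but 215, 198, 591 and 727 at its highest listed value. The level of this exon is therefore uncertain.

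Whether the knockout difference itself differed between the stages was tested with a Wald chi-square test of the difference of log odds ratios, adjusted over all middle exons with 20 junction reads in all 4 libraries. It passed an adjusted p of 0.05 for 3 of the 76, beside 0.0764% of all exons tested. The exons that passed this chi-square test were the *Srsf5* pieces of 126 nt (adjusted p = 1.5e-18) and 130 nt (adjusted p = 0.00048) and the *Srsf7* poison exon (adjusted p = 0.0035). The 2 *Srsf5* pieces overlap and share the distal splice site, so they are not independent. Depth was not matched in this comparison. The 126 nt piece had 5353 and 5788 junction reads at E18 (NesKO and wild type), and the share counts every exon with at least 20. The junction-read PSI of the *Srsf7* poison exon fell by 12.4 points in the NesKO and differed by 2.1 points in the EmxKO. The *Tra2a* poison exon, with -6.6 and 7.8 points, had an adjusted p of 0.12. Since each stage has its own tissue, Cre line and protocol, and the P1 library labelled wild type contains skipped *Ptbp2* exon 4, the source of these differences cannot be told apart.

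The levels of the 10 genes were compared in RPM, from the reads on all distinct junctions of a gene. At E18 the NesKO level was below the wild-type level for 8 of the 10, and none moved by 1.5 times in either direction. Their median ratio was 0.86, beside 0.965 over all genes. At the same cutoff 6.93% of all genes were lower and 3.88% higher in the NesKO. The lowest was *Srsf10*, with 33.6 RPM in the NesKO against 47.8 in its wild type (ratio 0.703), and *Srsf2* was the highest, with 33.8 against 27.9 (ratio 1.21). The single junctions of a gene scattered at E18, for *Srsf10* from 0.465 to 1.21 over 8 junctions and for *Srsf7* from 0.259 to 1.47 over 13. In *Srsf7* the lowest is a junction of the poison exon. The next lowest, at 0.424 and 0.519, and the highest are junctions outside that exon.

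At P1 all 10 genes were lower in the EmxKO than in the library labelled wild type, and 3 of them by at least 1.5 times. Their median ratio was 0.85 beside 1.03 over all genes, and 17.3% of all genes were lower by this cutoff and 5.79% higher. *Srsf10* stood at 28.1 RPM in the EmxKO and 70.6 in the library labelled wild type, a ratio of 0.398. *Tra2b* stood at 121 and 226 (ratio 0.537), and *Srsf3* at 221 and 363 (ratio 0.609). In these 3 genes every junction compared was lower, with ratios of 0.348 to 0.478 over 8 junctions of *Srsf10*, 0.506 to 0.58 over 10 of *Tra2b* and 0.555 to 0.668 over 7 of *Srsf3*. The junctions of each gene therefore varied less than the gap to 1. Without the poison junctions the ratios of *Tra2b* and *Srsf3* were 0.536 and 0.608. The other 7 genes had ratios between 0.805 (*Srsf11*) and 0.958 (*Srsf4*).

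**Figure D4:**
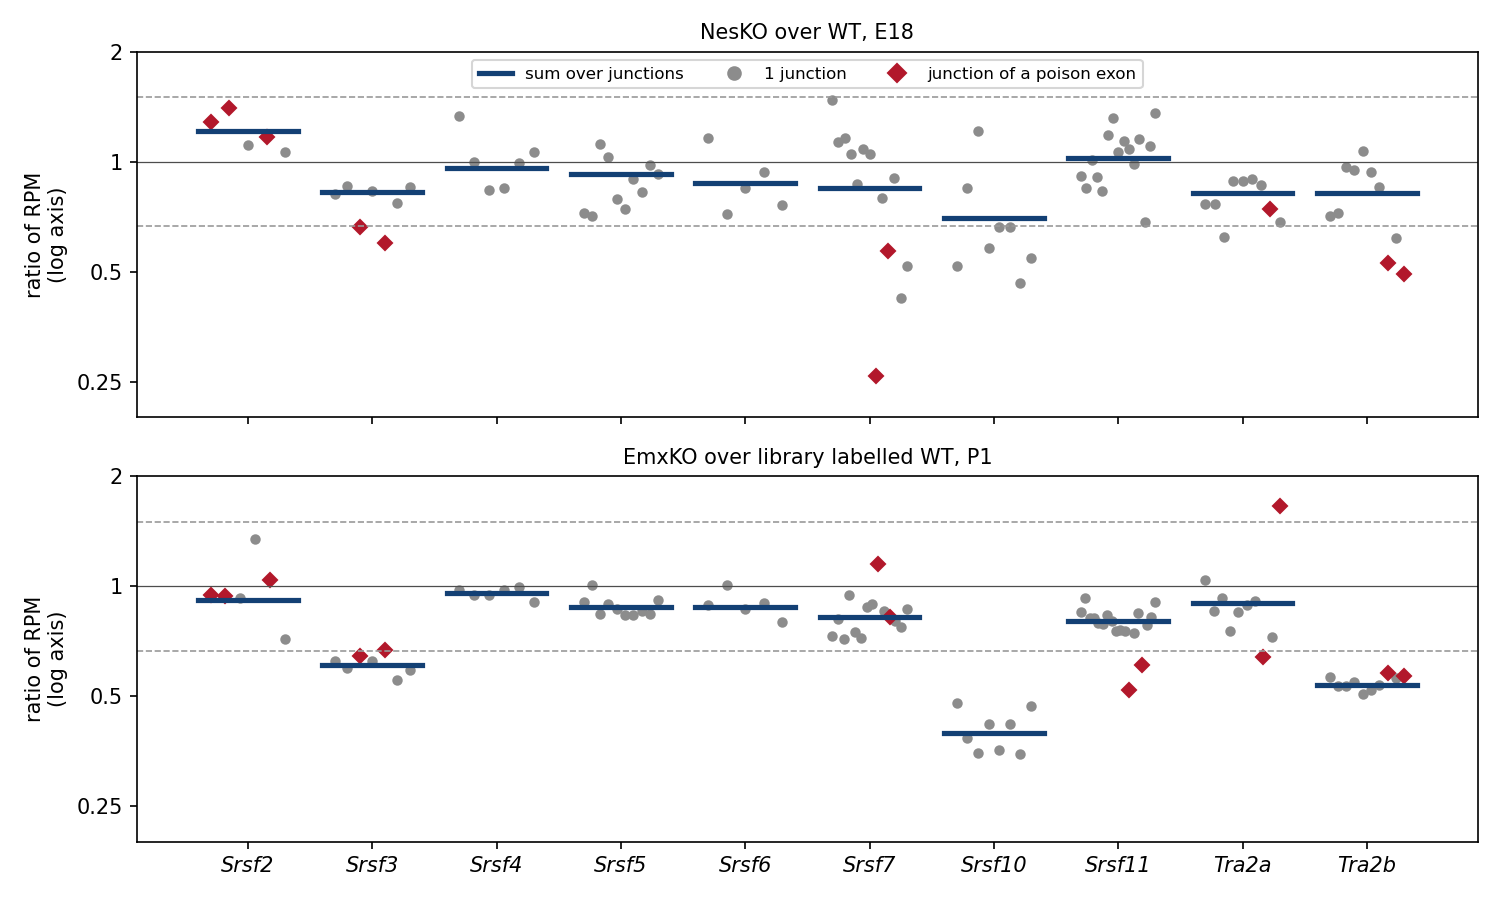
Ratio of RPM, knockout over wild type, on a log axis, for each junction with at least 20 reads in both libraries (grey circles, red diamonds for junctions of a poison exon) and for the sum over a gene's junctions (blue bars), at E18 (top) and P1 (bottom). Dashed lines mark 1.5 times. The bars of *Srsf10*, *Tra2b* and *Srsf3* at P1 lie at 0.398, 0.537 and 0.609 with their junctions close around them, whereas the junctions of *Srsf7* and *Srsf10* at E18 spread widely.

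Genes that act with these proteins were counted by the same rules. Of 226 middle exons in 20 other SR and SR-related genes, 1 rose by 10 points and none fell at E18. At P1, of 227, 3 rose and 1 fell. Of 104 in 8 genes for the kinases and the nuclear import of SR proteins, 2 rose and 2 fell at E18, and 1 rose and 2 fell at P1. Of 201 in 10 genes of nonsense-mediated decay, which removes transcripts with poison exons, none changed at E18 and 1 rose at P1. The shares called at E18 and P1 were 0.442% and 1.76% for the other SR genes and 3.85% and 2.88% for the kinase and import genes. For the decay genes the P1 share was 0.498%. Over all middle exons tested the shares were 2.12% and 1.39%. No exon of these lists passed both criteria at both stages. The levels of the decay genes had a median ratio of 0.924 at E18 and 0.954 at P1, with 1 of 10 lower by 1.5 times at P1 and none at E18. Of the other SR genes 5 of 20, and of the kinase and import genes 3 of 7, were lower by 1.5 times in the EmxKO, beside the 17.3% of all genes.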

How the data were processed

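SpliceTrap was used by the authors to place reads on duos and trios of exons, and each library has its own deposited table. The deposited inclusion ratio is a fraction, estimated before and after a correction by the program, and the deposited junction reads are counts without normalization. The labels name mm9 as the build, and exon starts were made 1-based. The versions of the authors' programs are not given in the sources used here. Genes were named by matching lengths to GENCODE M21, which gave a name by exon and both introns for 207482 trios, by 2 introns for 6019 and by an intron and both exons for 778, and no coordinates were converted.

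Where several trios share a middle exon, the one with the highest sum of junction reads over the 4 libraries stood for it. At alternative splice sites only the spliced inclusion junction entered the junction-read PSI. Inclusion (rounded mean) and skipping reads of the libraries of a stage entered Fisher's exact test, two-sided and adjusted by Benjamini-Hochberg over every middle exon of that stage, and 0.5 was added to each count in the Wald test. Wilson intervals (95%) and the smallest shares (3 reads) cover counting error only, since PCR copies are not independent molecules. A junction listed in several trios was counted once, at its highest value. Genes were compared by level when both libraries had 20 reads.

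All 10 genes were named in the text, with every poison exon, every other exon labelled cassette and every exon that changed by 10 points. Exons of the other gene lists were to be named where they passed both criteria at both stages. The genes, gene lists and tests were chosen with earlier results of these data known. Coverage columns were not used. Calculations used Python 3.11.15, numpy 2.4.6, pandas 2.3.3, scipy 1.17.1 and matplotlib 3.10.9, and were tested on simulated data. The alternatives tried were the ratio before correction, junction-read PSI, other read minimums, another trio, cassette labels only, wider naming, constitutive junctions and median scaling.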

Additional observations from a re-analysis of the deposited data

Results flagged for a closer look

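The results of 3 exon pieces were singled out because the knockout difference was not the same at E18 and P1 by the Wald test. The first is the 126 nt piece of *Srsf5* exon 1, with a difference of log odds ratios (E18 minus P1) of 0.68, from junction-read differences of 8.7 points in the NesKO and -5.0 points in the EmxKO. The overlapping piece of 130 nt had 0.58, from 3.7 and -1.1 points. The *Srsf7* poison exon had -0.97, from -12.4 and 2.1 points, and its deposited PSI differed by -2.7 and -3.3 points, so this difference between the stages is seen in the reads and not in the deposited ratio. Each value compares 4 single libraries.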

How the results depend on the processing

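Of 47 recomputed counts of exons or genes, 43 stayed within 1.5 times of the reported count. At E18, 5 member exons changed, and the count was 1 by junction-read PSI, 2 with the adjusted p required and 2 among cassette labels. That 1 exon is the *Srsf7* poison exon, which the deposited ratio does not call, while the *Tra2a* poison exon is called by the deposited ratio alone. The count of changed poison exons, 1 at E18, was 0 when the adjusted p was also required. No other alternative, including other read minimums, another trio or every trio, moved a count by over 1.5 times. The *Srsf11* 64 nt exon reversed at E18, from -12.8 points to 9.2 by junction-read PSI and 6.7 with the smaller inclusion junction. Of 24 differences of named exons, 7 moved beyond the counting interval or reversed by junction-read PSI and none with the ratio before correction. The 3 genes lower at P1 were lower under both level alternatives. No paired analysis was possible because each group has 1 library. With 1 library a group no replicate could be left out, and depth at E18 was lowest for the *Srsf11* exon of 64 nt, where 3 reads are 8.57% of the total in the E18 wild type and a larger share in the NesKO.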

Other observations

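Kinases of the CLK family phosphorylate SR proteins, and their exon 91 nt long, whose skipping changes the reading frame, was looked at after its values were seen. The *Clk1* exon (chr1:58476965-58477055 of mm9) had a PSI of 45.9% in the EmxKO and 90.0% in the P1 library labelled wild type (Fisher's exact test, adjusted p = 2.2e-19). At E18 it was 51.0% in the NesKO against 68.8% in its wild type, with an adjusted p of 1.0. The corresponding *Clk4* exon (chr11:51086580-51086670) had 33.8% and 64.1% at P1 (adjusted p = 1.1e-08, Fisher's exact test) and 58.3% and 80.1% at E18 (adjusted p = 0.73). The deposited PSI of both exons was thus lower in both knockouts, and the test on the reads passed at P1 only. By junction reads the *Clk1* difference at E18 was -1.4 points and the *Clk4* difference -16.0 points. Another 2 passed both the 10-point cutoff and the test at 1 stage, a *Clk4* exon of 67 nt at P1 (24.9% against 12.5%) and a *Clk1* retained intron of 1349 nt at E18 (17.6% against 6.3%), which spans the *Clk1* exon of 91 nt and shares reads with it. The reads of this intron passed the test at both stages in opposite directions, with differences of 32.0 points at E18 (adjusted p = 2.2e-05) and -17.9 points at P1 (adjusted p = 1.6e-08, Fisher's exact test), while its deposited PSI differed by 2.5 points at P1.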
